A study of Rattus norvegicus with 3 samples.

Results

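Interferon-induced genes are the genes that cells switch on after interferon has bound its receptors, and 35 of them were described here on 3 whole rat genome arrays. The list was given by gene symbol, with no measured value in its rule, though it was drawn up with earlier results of these arrays known. A gene was measured where a probe carried a RefSeq accession that named it, which held for 30 of the 35 members, out of 13235 genes named on the array. All 30 were well above background, by the call of the scanner software, on at least 1 array, as were 9965 of all named genes, and 25 of the 30 were so on all 3 arrays. Irf8, Oas1b, Samhd1, Parp14 and Igtp had no named probe and were not analysed here. Since bright and dim genes differ in how large a ratio they can show, the passing of this filter is not itself a result.

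The samples were 3 cell cultures from F344 rats. The osteosarcoma line COS1NR and the malignant fibrous histiocytoma (MFH) line MFH1NR were established from tumors induced with 4-HAQO, and the methods state that both carry a p53 mutation. The mesenchymal stem cells (MSCs) came from femur bone marrow of the same strain, were obtained by their growth as a monolayer on plastic and were not sorted by surface markers. No treatment with interferon is named for any of the 3 cultures. MSCs were kept in more fetal bovine serum than the sarcoma lines, and the number of animals behind each culture was not given in the sources used here.

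Type I interferons bind a receptor on nearly every cell and act through Janus kinases on a complex that holds Stat2 and Irf9 and binds the interferon-stimulated response element (ISRE). Genes that answer to type II interferon often carry another element, the gamma-activated site (GAS). The induced genes detect viral RNA, block steps of viral growth, tag proteins with the ubiquitin-like Isg15, and change the proteasome toward the making of peptides for MHC class I. Many are also expressed at a low level without infection.

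Each cell type was represented by 1 array, so there was no spread between cultures and no difference could be tested. A level is the processed intensity of a probe divided by the 75th percentile of its own array, so a level of 1 is the brightness at that percentile, and a ratio is the level on an array over that on another, on the log2 scale. The error that the software itself gave for a level, which covers the spot and the scan but not cultures or labeling, lay between 10% and 20.0% of the level over the 83 member values well above background, with a median of 10.0%. For a log2 ratio it lay between 0.20 and 0.39. Probes for the same gene disagreed by a similar amount, with a median difference in log2 of 0.28 for COS1NR over MSCs, 0.31 for MFH1NR over MSCs and 0.15 for MFH1NR over COS1NR, over 1886 genes. Differences of at least 2-fold were counted. The limit of detection, taken as the lowest level well above background, was 0.0305 (MSCs), 0.0380 (COS1NR) and 0.0302 (MFH1NR), and where a gene was not well above background on an array its ratio is only a bound against these.

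The arrays carried 45018 spots each, of which between 56.6% and 59.7% of those that are not controls were well above background, and none was saturated. The sarcoma arrays lay on 1 slide with 1 scan and the MSC array on another, and for every ratio to MSCs the slide and the cell type cannot be told apart. The labelled cell types were set against marker lists. All 8 fibroblast markers were well above background in MSCs and 7 in each sarcoma line, with summed levels of 1056, 133 and 279 in MSCs, COS1NR and MFH1NR. Most of the COS1NR sum was a Col1a1 probe with a level of 113, and another Col1a1 probe was 12.9-fold lower in COS1NR than in MSCs. Osteoblast markers were not higher in the osteosarcoma line: of 5 measured, 4, 3 and 4 were well above background in MSCs, COS1NR and MFH1NR, with summed levels of 14.1, 1.97 and 2.86, and 3 of the 4 with a ratio were at least 2-fold lower in COS1NR than in MSCs. The 12 macrophage markers were all well above background in MSCs, against 5 in COS1NR and 4 in MFH1NR, and their summed level was 162, 8.85 and 4.18. The summed levels of the T cell, B cell, neutrophil, erythroid and endothelial markers were at or below 1.25 on every array.

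The letters of these elements were searched in the promoters of the members, since the members were listed for their response and not for their sequence. Promoters were taken from RefSeq as 250 bases before to 50 after the start of each gene, on the GRCr8 assembly, and 30 of the 35 members had one. Mx2, Ifit2, Isg15, Dhx58 and Usp18 had no entry. The ISRE core was written as GAAANNGAAA or, on the opposite strand, TTTCNNTTTC, and the GAS as TTCNNNGAA, which reads the same on both strands. The ISRE core was found in 19 of the 30 member promoters (63.3%), against 3.92% of 33469 promoters in all and 3.54% of the 11244 promoters of measured genes. The GAS letters were found in 12 (40.0%), against 8.87% and 7.95%. Both occurred in 7 member promoters, neither in 6, and in 1 promoter a GAS match overlapped an ISRE match. A match is a description of letters and not a bound site.

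Windows of 60 bases around the ISRE core are printed for 9 members whose level was at least 2-fold lower in both sarcoma lines than in MSCs, and then for Bst2 and Psmb8, whose levels were highest in MFH1NR. They run 5′ to 3′ on the strand of the gene, and the capitals mark a match to the ISRE core. Bst2 and Oas1a held a further match each, which is not in capitals. The windows lie at chr1:241527257-241527316 on the plus strand (Ifit3), chr12:41330406-41330465 on the plus strand (Oas1a), chr12:47383302-47383361 on the minus strand (Oasl2), chr1:142239942-142240001 on the plus strand (Isg20), chr6:48788233-48788292 on the minus strand (Rsad2), chr1:205800058-205800117 on the minus strand (Irf7), chr3:67683993-67684052 on the minus strand (Ifih1), chr2:233910918-233910977 on the plus strand (Gbp5), chr10:33742578-33742637 on the minus strand (Irgm), chr16:18255058-18255117 on the minus strand (Bst2) and chr20:4657001-4657060 on the minus strand (Psmb8).
Ifit3: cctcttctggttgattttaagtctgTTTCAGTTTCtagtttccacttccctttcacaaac
Oas1a: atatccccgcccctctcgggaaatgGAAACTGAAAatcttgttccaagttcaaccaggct
Oasl2: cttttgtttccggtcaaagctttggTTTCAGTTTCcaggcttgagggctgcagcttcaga
Isg20: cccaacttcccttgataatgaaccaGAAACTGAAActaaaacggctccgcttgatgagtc
Rsad2: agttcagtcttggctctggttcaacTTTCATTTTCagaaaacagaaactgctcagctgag
Irf7: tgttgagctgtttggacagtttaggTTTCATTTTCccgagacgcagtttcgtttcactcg
Ifih1: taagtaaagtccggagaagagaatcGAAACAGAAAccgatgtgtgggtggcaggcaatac
Gbp5: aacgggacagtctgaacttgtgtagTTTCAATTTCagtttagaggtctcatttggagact
Irgm: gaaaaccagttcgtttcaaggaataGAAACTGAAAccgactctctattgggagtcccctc
Bst2: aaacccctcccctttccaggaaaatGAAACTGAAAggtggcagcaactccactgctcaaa
Psmb8: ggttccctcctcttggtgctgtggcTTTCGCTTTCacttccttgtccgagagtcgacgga

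Counted from the start of the gene, the first base of the printed match lay at -35 in Oas1a, -44 in Ifit3 and -125 in Bst2. Members with and without the ISRE core both had medians below 0 in the ratios to MSCs. Of the 25 members with both a promoter and a probe, the 16 with the core had a median log2 ratio of -2.50 (COS1NR to MSCs) and -2.04 (MFH1NR to MSCs). Of these 16, 9 were at least 2-fold lower in both lines (against 13.6% of all genes). The 9 without the core, among them Irf1, Mx1 and Oasl, had medians of -1.62 and -1.81. Of those without it, 5 were lower in both lines (against the same 13.6%). Gene starts come from the annotation and not from these arrays, and the members of a pair such as Oas1a and Oasl2 are related genes.

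**Figure D1:**
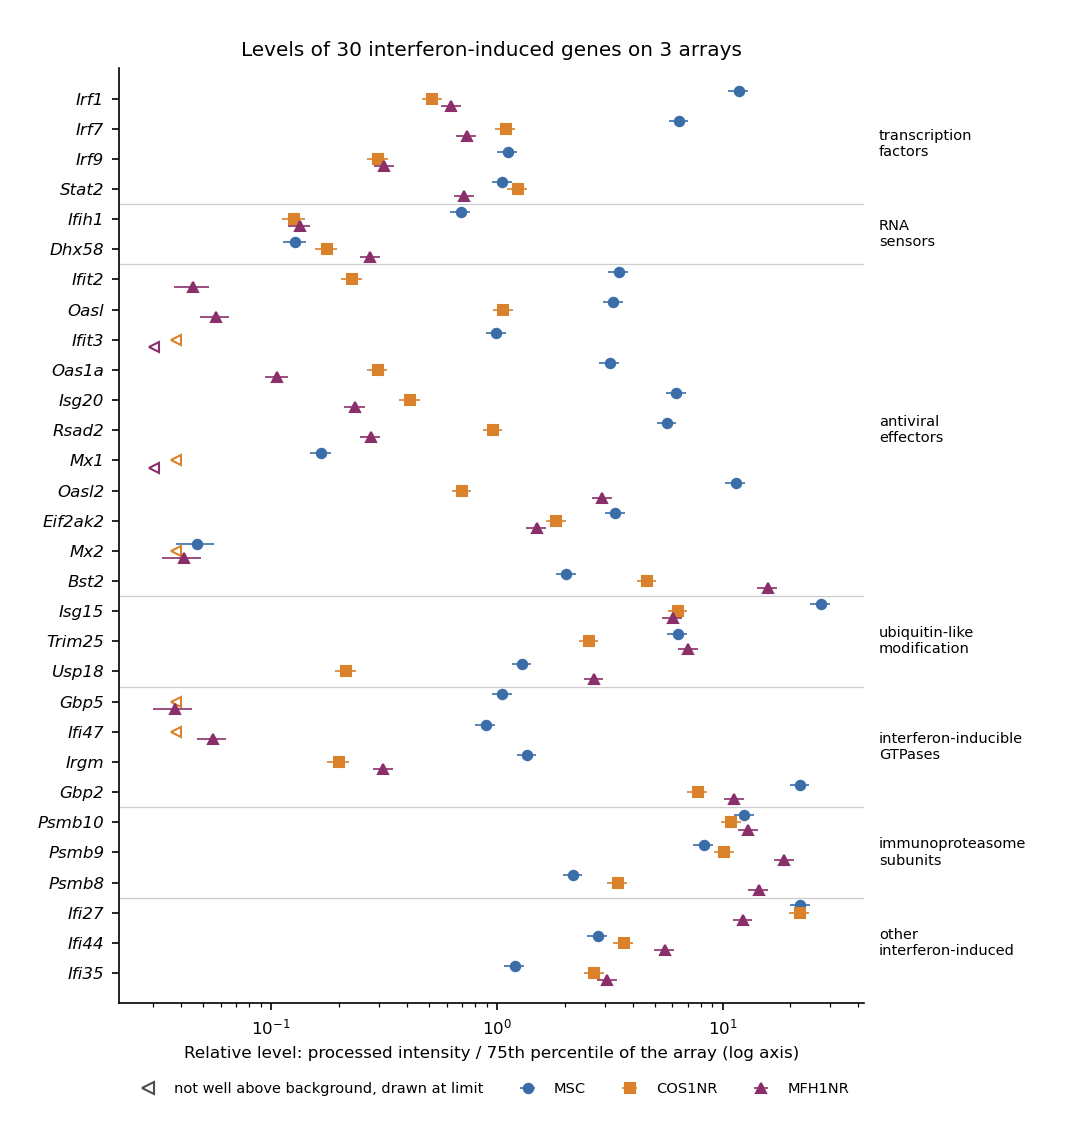
Level of each of the 30 measured members (rows, grouped by role) on the arrays of MSCs (circles), COS1NR (squares) and MFH1NR (triangles), as processed intensity over the 75th percentile of the array on a log axis. Bars are the error given by the software, and open triangles stand at the lowest level well above background of an array where the gene was not called. MSCs held the highest level for 20 of the 30 genes, for some of them by less than the error.

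The first comparison set each sarcoma line against MSCs. Of the 30 measured members, 16 were at least 2-fold lower in both lines (against 13.6% of all genes). Among them were the antiviral effectors Ifit2, Ifit3, Isg20 and Oas1a, the transcription factor Irf1, and the interferon-inducible GTPases Gbp5 and Ifi47, each by over 10-fold in both. Bst2, Ifi35, Ifi44, Dhx58, Psmb8 and Psmb9 did not follow them and had ratios above 0 in both lines, although not all of these reached 2-fold.

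In COS1NR, 19 of 30 members (63.3%) were at least 2-fold lower than in MSCs, against 20.0% of the 9665 genes with a ratio. Only Bst2 and Ifi35 were at least 2-fold higher (6.67% of members, against 20.6% of all genes), and with scaling by 7 spike-in probes both came under 2-fold, at log2 ratios of 0.91 and 0.90. In MFH1NR, 17 of 30 members (56.7%) were lower, against 21.6% of 9778 genes. The 6 that were higher, namely Bst2, Dhx58, Ifi35, Psmb8, Psmb9 and Usp18, made 20.0% of members, close to the 19.3% of all genes.

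Both ratios share the MSC array, so they are not independent of each other. By both of them, 16 of 30 members (53.3%) were at least 2-fold below MSCs, against 13.6% of the 9478 genes with both ratios. These were Gbp5, Ifi47, Ifih1, Ifit2, Ifit3, Irf1, Irf7, Irf9, Irgm, Isg15, Isg20, Mx1, Oas1a, Oasl, Oasl2 and Rsad2. Higher in both lines were Bst2 and Ifi35 (6.67%, against 11.3%). MSCs held the highest level for 20 of 30 members (66.7%, against 35.6% of all genes), MFH1NR for 9 (30.0%, against 29.3%) and COS1NR for Stat2 alone (3.33%, while it held the highest level for 3491 of the 9965 genes). This tally takes no account of the error, and some of its calls rest on differences near or within it. For COS1NR over MSCs the log2 ratio was 0.22 for Stat2 and -0.01 for Ifi27, and for MFH1NR over MSCs it was -0.19 for Mx2.

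The median log2 ratio of the 30 members was -2.00 in COS1NR and -1.89 in MFH1NR, while that of all genes was 0.10 and 0.01. Member ratios ran from -4.80 (a bound, for Gbp5) to 1.18 in COS1NR and from -6.27 to 2.96 in MFH1NR, and 23 members in COS1NR and 21 in MFH1NR lay below 0. By their brightest probes, all 12 macrophage markers moved in the same direction as the lower members, at least 2-fold lower in both lines. Adgre1, Itgam, Mrc1, Lyz2, Spi1, Fcgr2b and Cd163 were not well above background in either line. A second Cd163 probe, near the limit in MSCs, gave bounds of only -0.02 in COS1NR and -0.34 in MFH1NR. Fibroblast markers were lower too, 7 of 8 in COS1NR (median -4.47) and 4 of 8 in MFH1NR (median -1.48). The part of either list in the lower level of the members was not tested, and in a bulk culture fewer cells of a type and less RNA per cell cannot be told apart.

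**Figure D2:**
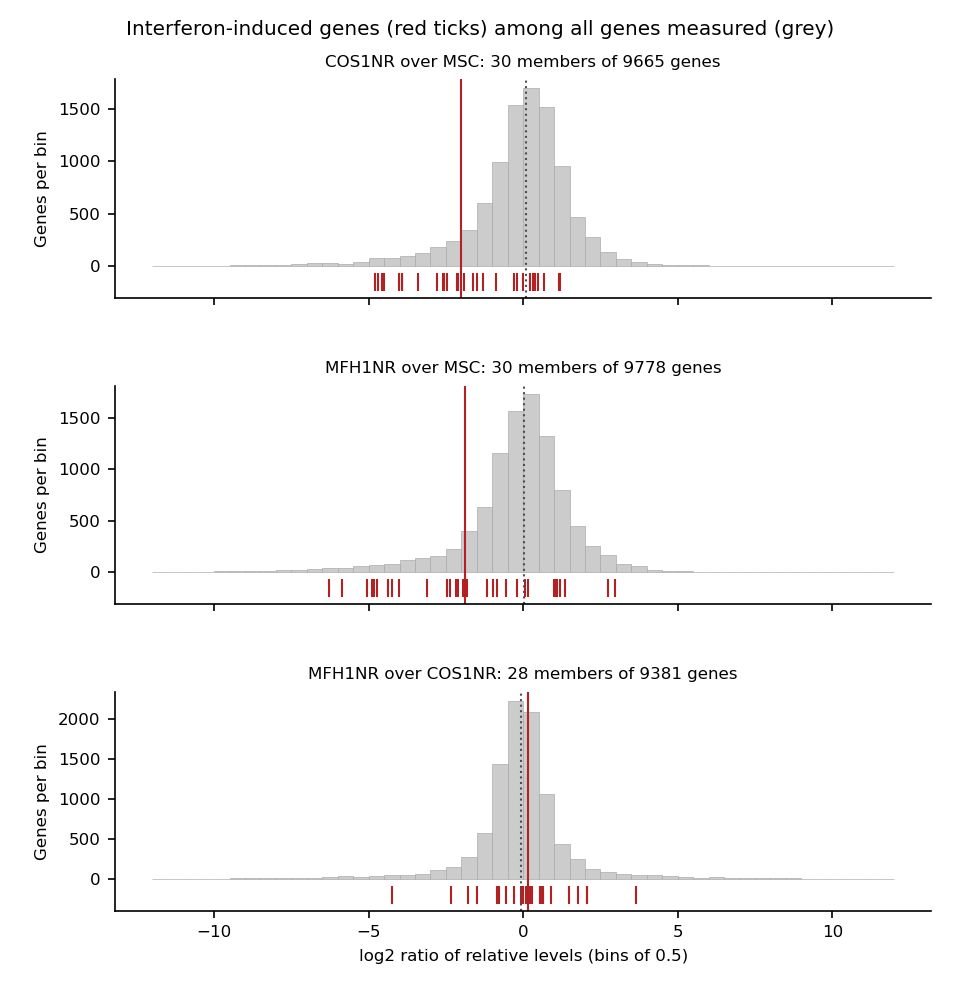
Log2 ratios of relative levels for COS1NR over MSC, MFH1NR over MSC and MFH1NR over COS1NR (panels), with the number of genes per bin of 0.5 in grey and each member as a red tick. Red lines mark the member medians of -2.00, -1.89 and 0.15, and dotted lines the medians of all genes of 0.10, 0.01 and -0.08.

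**Figure D3:**
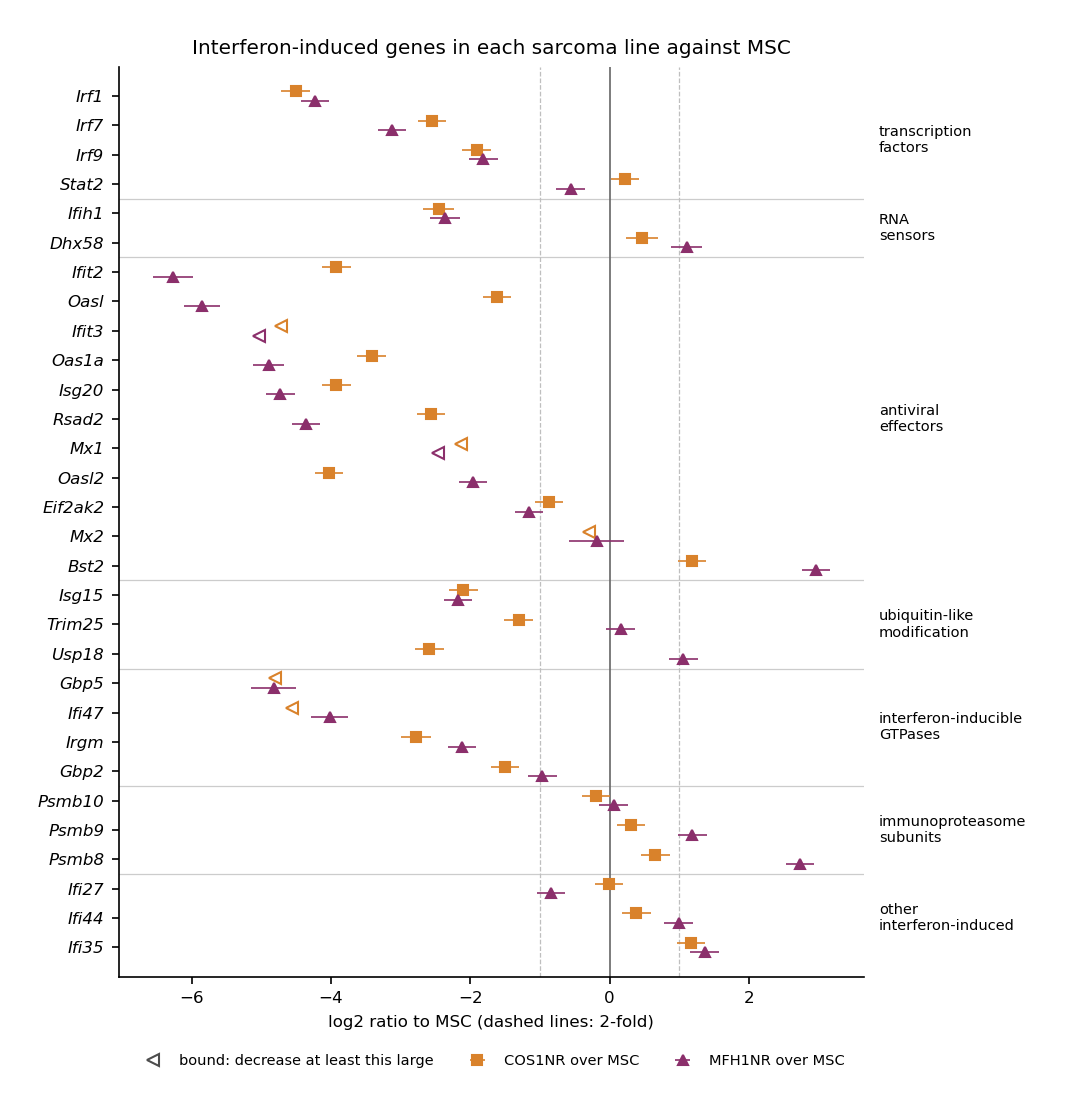
Log2 ratio of COS1NR (squares) and MFH1NR (triangles) to MSC for the 30 members by role, with the error given by the software as bars and 2-fold as dashed lines. Open triangles are bounds, where the true decrease was at least as large. The antiviral effectors lie mostly to the left and the immunoproteasome subunits at or to the right of 0.

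Among the transcription factors, Irf1, Irf7 and Irf9 were lower in both sarcoma lines, and Stat2 stayed within 2-fold. Irf1, which acts early after type II interferon, had a level of 11.8 in MSCs against 0.518 in COS1NR and 0.629 in MFH1NR. It was thus 22.8-fold lower in COS1NR (log2 ratio -4.51) and 18.8-fold lower in MFH1NR (-4.23), nearly the same in both lines. Irf7, the factor that amplifies the production of type I interferon, had levels of 6.41, 1.09 and 0.735 in the same order, which were 5.86-fold and 8.71-fold lower. Irf9, the DNA-binding subunit of the complex that binds the ISRE, had 1.12, 0.298 and 0.318, with log2 ratios of -1.91 and -1.81. Stat2, its partner, had 1.06, 1.24 and 0.718, with log2 ratios of 0.22 and -0.56. Of the 4 measured factors, 3 were lower in both lines (against 13.6% of all genes) and none was higher in both (against 11.3%).

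The cytosolic RNA sensors Ifih1 and Dhx58 belong to the same helicase family and went different ways. Ifih1, which detects long double-stranded RNA, had a level of 0.691 in MSCs against 0.126 in COS1NR and 0.134 in MFH1NR, 5.48-fold and 5.15-fold lower. Dhx58, which regulates that signal, had 0.128, 0.177 and 0.275, and its log2 ratios were 0.47 and 1.11. A second Dhx58 probe gave -0.08 and 0.30, so its 2-fold difference in MFH1NR was seen with the brighter probe alone.

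Of the 11 antiviral effectors, 8 were at least 2-fold lower in COS1NR (against 20.0% of all genes) and 9 in MFH1NR (against 21.6%), 8 of them in both (against 13.6%). Ifit2, which binds viral RNA and slows its translation, had a level of 3.47 in MSCs against 0.228 in COS1NR and 0.0450 in MFH1NR. The decrease was 15.2-fold in COS1NR and 77.1-fold in MFH1NR, the largest measured decrease of any member, and the MFH1NR level lay close to the limit of its array. Its second probe was not well above background in either line, which gives bounds of -2.34 and -2.67. Ifit3, of the same family, had 0.995 in MSCs and was not well above background in the sarcoma lines, at least 26.2-fold lower in COS1NR and by at least 32.9-fold in MFH1NR.

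The 2′-5′-oligoadenylate synthetase family makes or resembles the enzymes that make the activator of RNase L, and its members Oas1a, Oasl and Oasl2 were lower in both lines but in different order. Oas1a had a level of 3.16 in MSCs against 0.297 in COS1NR and 0.106 in MFH1NR, 10.6-fold and 29.7-fold lower. Oasl had 3.28, 1.07 and 0.0567, 3.07-fold lower in COS1NR and 57.9-fold lower in MFH1NR. Oasl2 had 11.4, 0.700 and 2.94, 16.3-fold lower in COS1NR and 3.89-fold lower in MFH1NR. Of the family, Oas1i is outside the 35 genes and had log2 ratios of -0.36 and -1.47, under 2-fold in COS1NR. Oasl was nearest to MSCs in the line where Oasl2 was farthest. Sequences of this family are alike, and how far the probes share transcripts was not tested.

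Rsad2 (viperin), which makes a nucleotide that stops viral polymerases, had a level of 5.67 in MSCs against 0.961 in COS1NR and 0.276 in MFH1NR, 5.90-fold and 20.5-fold lower. A second Rsad2 probe was not well above background on any array. Isg20, an exonuclease that degrades RNA, had 6.25, 0.412 and 0.235, 15.2-fold and 26.5-fold lower. Mx1, a dynamin-like GTPase, had 0.166 in MSCs and was not well above background in the lines, at least 4.38-fold lower in COS1NR and by at least 5.50-fold in MFH1NR. Its relative Mx2 was near the limit on every array where it was called, with 0.0467 in MSCs and 0.0410 in MFH1NR, and its decrease in COS1NR was at least 1.23-fold, a bound too small to be counted.

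Eif2ak2 (PKR), the kinase that stops translation when it meets double-stranded RNA, changed less, with levels of 3.35 in MSCs against 1.83 in COS1NR and 1.50 in MFH1NR. Its log2 ratios were -0.87 and -1.16, a second probe gave -0.76 and -0.41, and the 2-fold difference in MFH1NR was lost under 5 of 11 other settings. Bst2 (tetherin), a membrane protein that holds budding virus at the cell surface, went against the rest of the effectors. Its level was 2.03 in MSCs against 4.62 in COS1NR and 15.9 in MFH1NR, 2.27-fold and 7.80-fold higher. A second Bst2 probe gave a log2 ratio of 1.21 for COS1NR over MSCs and 1.79 for MFH1NR over COS1NR, close to the 1.18 and 1.78 of the first.

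Isg15 is a ubiquitin-like protein that is attached to other proteins, Trim25 is a ligase in this and in ubiquitin transfer, and Usp18 removes Isg15 again and also damps the type I receptor. Isg15 had a level of 27.3 in MSCs against 6.36 in COS1NR and 6.02 in MFH1NR, 4.29-fold and 4.53-fold lower. Trim25 had 6.32, 2.56 and 7.06, lower by 2.47-fold in COS1NR (1.31 on the log2 scale, under 2-fold at -0.91 with no scaling) and within 2-fold in MFH1NR. Usp18 had 1.29, 0.215 and 2.69, 6.01-fold lower in COS1NR and 2.09-fold higher in MFH1NR. So all 3 were lower in COS1NR (against 20.0% of all genes), and in MFH1NR the modifier was lower while the enzyme that removes it was not.

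The interferon-inducible GTPases, which gather at the vacuoles of intracellular bacteria and parasites, were lower in COS1NR in 4 of 4 measured members (against 20.0% of all genes) and in MFH1NR in 3 of 4 (against 21.6%). Gbp5 had a level of 1.06 in MSCs, was not well above background in COS1NR, at least 27.8-fold lower, and had 0.0373 in MFH1NR, 28.3-fold lower. Ifi47 had 0.892 in MSCs, was not well above background in COS1NR, a decrease of at least 23.5-fold, and had 0.0550 in MFH1NR, 16.2-fold lower. Both were thus close to or below the limit of detection in the sarcoma lines. Irgm had 1.36, 0.199 and 0.313, 6.85-fold and 4.35-fold lower. Gbp2 remained well above background on all arrays, with 22.0, 7.76 and 11.3, which are log2 ratios of -1.50 and -0.96.

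The immunoproteasome subunits showed none of these decreases. Psmb8, Psmb9 and Psmb10 replace the catalytic subunits Psmb5, Psmb6 and Psmb7 of the standard proteasome and change which peptides reach MHC class I. Psmb8 had a level of 2.17 in MSCs against 3.43 in COS1NR and 14.5 in MFH1NR, 6.65-fold higher in MFH1NR than in MSCs. Psmb9 had 8.26, 10.2 and 18.8, 2.28-fold higher in MFH1NR. Psmb10 had 12.5, 10.9 and 13.0 and differed by at most 0.19 in log2 from MSCs. In MFH1NR 2 of 3 were thus at least 2-fold higher than in MSCs (against 19.3% of all genes), and in COS1NR none was (against 20.6%).

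Since the immunoproteasome subunits take the place of constitutive ones, each was set against its counterpart by the difference of their log2 ratios. For Psmb8 over Psmb5 the difference from MSCs was 0.92 in COS1NR and 2.99 in MFH1NR. For Psmb9 over Psmb6 it was 0.17 and 0.89, and for Psmb10 over Psmb7 it was -0.85 and 0.05. The difference was largest for Psmb8 in both lines. Those of Psmb9 in COS1NR and of Psmb10 in MFH1NR lay within the error of the ratios. Of 14 constitutive subunits, none was at least 2-fold lower in either line, Psmb4 (1.15) and Psma5 (1.26) were higher in COS1NR, and none was higher in MFH1NR, with medians of 0.68 and 0.19, against 20.6% and 19.3% of all genes that were higher. A second probe of Psma6 gave 1.30 in COS1NR, where its brighter probe gave 0.81. Proliferation markers, with 6 of 6 higher in both lines and a summed level of 33.1 in MSCs against 171 in COS1NR and 153 in MFH1NR, moved in the same direction, and their part was not tested.

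**Figure D4:**
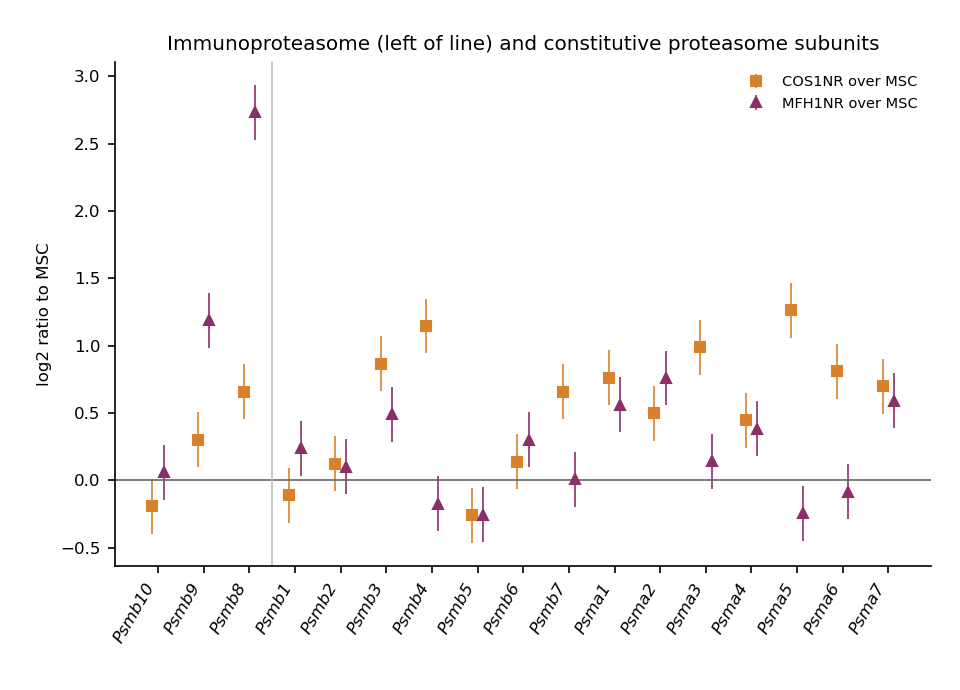
Log2 ratio to MSC of the 3 immunoproteasome subunits (left of the vertical line) and 14 constitutive proteasome subunits in COS1NR (squares) and MFH1NR (triangles), with the error given by the software. Psmb8 and Psmb9 in MFH1NR, at 2.73 and 1.19, lie above all constitutive subunits of that line.

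The last group held Ifi27, Ifi35 and Ifi44, interferon-induced genes outside the roles above. Ifi35 was higher in both lines, with a level of 1.20 in MSCs against 2.70 in COS1NR and 3.09 in MFH1NR, 2.25-fold and 2.57-fold. Ifi44 had 2.79, 3.64 and 5.55, log2 ratios of 0.38 and 0.99, and its other probes gave -0.11 and 0.67 and then 0.42 and 1.09. Ifi27 had 22.1 in MSCs against 21.9 in COS1NR and 12.3 in MFH1NR, so it was level in COS1NR and 0.84 lower in log2 in MFH1NR. None of the 3 was at least 2-fold lower in either line (against 20.0% of all genes in COS1NR and 21.6% in MFH1NR).

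The second comparison set the sarcoma lines against each other, on arrays of 1 slide. MFH1NR held more Usp18, Psmb8, Oasl2, Bst2 and Trim25, and less Oasl, Ifit2, Rsad2 and Oas1a, so antiviral effectors were found on both sides. Over 28 members with a ratio, the median was 0.15, against -0.08 for all genes, 10 members lay below 0 and 17 above it, and ratios ran from -4.24 to 3.65. The share of members at least 2-fold apart was near that of all genes in both directions. Higher in MFH1NR were 5 of 28 (17.9%, against 12.5% of the 9381 genes), and lower were 4 of 28 (14.3%, against 15.1%).

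Usp18 showed the widest gap upward, 12.5-fold higher in MFH1NR than in COS1NR, and was also higher than in MSCs. Psmb8 was 4.21-fold, Oasl2 4.20-fold, Bst2 3.43-fold and Trim25 2.76-fold higher. Downward, Oasl was 18.8-fold lower, Ifit2 5.07-fold, Rsad2 3.48-fold and Oas1a 2.79-fold, of which Oas1a came under 2-fold at -0.69 with scaling by spike-in probes. Oasl and Oasl2 thus lay at nearly opposite ends of the order, with log2 ratios of -4.24 and 2.07. Gbp5 has no ratio here beyond 1, since its COS1NR level was not well above background and its MFH1NR level only just so.

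Bst2, Psmb8 and Usp18 were the members at least 2-fold higher in MFH1NR than on both other arrays (3 of 28, 10.7%, against 6.54% of 9194 genes). No member was higher in COS1NR than on both other arrays (0 of 28, against 6.62% of 9081 genes). Among the 28, 16 were measured in both lines and differed by less than 2-fold, including Isg15 (-0.08), Irf9 (0.09) and Ifih1 (0.09), which were lower in both lines than in MSCs. Most genes of the array also lay within 2-fold between the lines, since 12.5% were higher and 15.1% lower in MFH1NR. Mx2, Gbp5 and Ifi47 have only bounds under 2-fold, so their true ratio may be larger, and without the bound 7 members were higher in MFH1NR (against 14.4% of all genes). The small ratios rest on the arrays of a shared slide, and the interval of each is not known without replicate cultures.

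**Figure D5:**
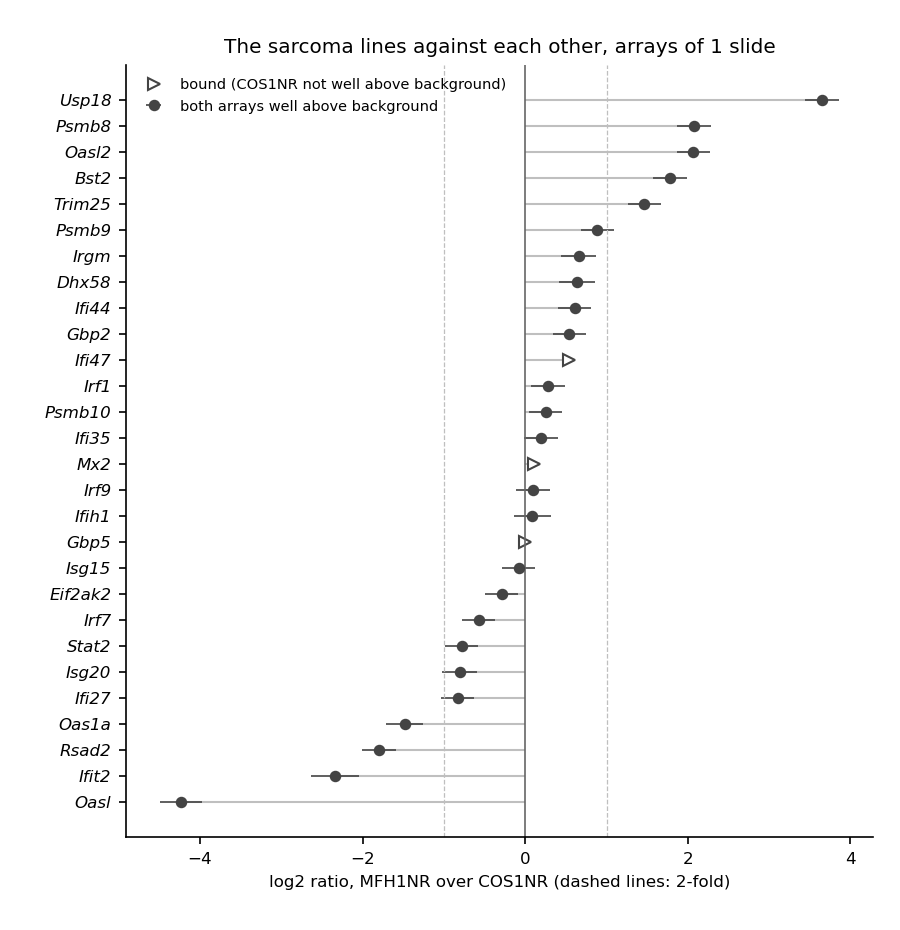
Log2 ratio of MFH1NR to COS1NR for the 28 members with a ratio, ordered by size, with the error given by the software and 2-fold as dashed lines. Open triangles are bounds (Gbp5 at 0 has no fold). Oasl at -4.24 and Usp18 at 3.65 are the ends of the order.

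The genes upstream of the members were listed to see whether the pathway itself was measured. Of 9 interferon ligands 5 had a named probe, and only Ifnb1 was well above background, in MSCs at 0.0347, just over the limit. Of 6 receptor genes 4 were measured, and 2 were lower in COS1NR (against 20.0% of all genes) and 4 in MFH1NR (against 21.6%). Ifngr1, a chain of the type II receptor, had a level of 1.81 in MSCs against 0.760 in COS1NR and 0.434 in MFH1NR, with log2 ratios of -1.25 and -2.06. Ifnar1, a chain of the type I receptor, had 1.17, 0.700 and 0.560, although its other probe gave log2 ratios of 0.36 and -0.05.

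Of 3 measured Janus kinases and Stat factors outside the members, 1 was at least 2-fold lower in COS1NR (against 20.0% of all genes), namely Jak1, and none in MFH1NR (against 21.6%). Stat3 had log2 ratios of -0.20 and 0.47 with its brightest probe and -1.62 and -1.05 with another. Of 7 negative regulators, 3 were lower in both lines (against 13.6% of all genes), which were Socs1, Socs3 and Ptpn6. Of 10 measured nucleic acid sensors and adaptors outside the members, 3 were lower (against 20.0% of all genes) and 0 higher (against 20.6%) in COS1NR, and 2 were lower (against 21.6%) and 1 higher (against 19.3%) in MFH1NR, so the lower counts were near those of all genes.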

How the data were processed

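Cy3-labeled cRNA of MSCs, COS1NR and MFH1NR was hybridized to 1 Agilent whole rat genome array each. The authors deposited the processed intensity of every spot, which Agilent Feature Extraction had background-subtracted and detrended within the array but not scaled between arrays. The file headers give version 10.5.1.1 of this software and the labels 9.1, and the labels and the methods name different RNA kits. The deposited series table held the same intensities on 45018 of 45018 spots of each array.

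Control spots and spots called outliers were left out, spots of a probe were averaged in log2, and each array was scaled to the 75th percentile of its spots that are not controls (589 in MSCs, 774 in COS1NR, 994 in MFH1NR). The RefSeq gene table of GRCr8 named 16669 of the 17814 probes that carry a curated mRNA accession. No probe coordinates are printed, since the array was designed on an earlier build. The brightest probe by mean log2 intensity stood for its gene. Where an array was not well above background, the bound was the brighter level over either the dim probe's own level or the lowest level well above background on that array, whichever was higher. All measured members are named, and the other lists are given by counts with some of their genes. The members and lists were chosen with earlier results of these data known. A certain gene of the pathway was left out of these lists and is not reported here.

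No test was made, since there was 1 array per cell type, and the number of arrays limits the precision. Replicate spots had a median SD between 0.0475 and 0.0583 in log2. Alternatives were 4 other scalings, normexp background correction, no bound, filters on dim probes, the probe of a gene, the series table, a 3-fold threshold and the mean in place of the median. Normexp was planned on the mean spot intensity, which is not among the columns used here, and was run on the median with an offset of 50, a choice made after the files were seen. The counting step was tested on simulated data with large changes planted in genes far above the limit of detection. That test does not cover bounds or ratios near 2-fold. Python 3.11.15, numpy 2.4.6, pandas 2.3.3, matplotlib 3.10.9, R 4.3.3 and limma 3.58.1 were used.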

Additional observations from a re-analysis of the deposited data

Results flagged for a closer look

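Usp18, the protease that removes Isg15 from proteins, moved in opposite directions from MSCs in the sarcoma lines, at log2 ratios of -2.59 (COS1NR) and 1.06 (MFH1NR). Its level was 1.29 in MSCs against 0.215 in COS1NR and 2.69 in MFH1NR, each from 1 array, and the difference between the lines was not tested. A second Usp18 probe gave a bound of -2.37 and a ratio of 1.38.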

How the results depend on the processing

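No paired analysis was possible because each cell type had 1 array and the groups share no replicate pairs. Of 88 member ratios, 53 were at least 2-fold. None of these 53 changed sign under any of up to 11 other settings, and 47 kept their side of 2-fold under all of them. Of the other 35, 12 changed sign under some setting. With no scaling, members higher in MFH1NR than in COS1NR numbered 8 (against 19.9% of all genes), and the medians were -1.61 (COS1NR to MSC), -1.13 (MFH1NR to MSC) and 0.51 (MFH1NR to COS1NR). With spike-in scaling no member was higher in COS1NR (0, against 14.5% of all genes) or in both lines (0, against 11%) than in MSCs, 13 were higher in MFH1NR than in COS1NR (against 35% of all genes), and the medians of MFH1NR were -1.37 and 0.94. These scalings moved the medians of all genes as well, to 0.49, 0.77 and 0.27 with no scaling, to -0.16, 0.53 and 0.70 with spike-in scaling, and to 0.26, 0.23 and -0.02 with median scaling. Normexp gave medians of -1.56 and -1.55 to MSC. The 25 members well above background on all arrays, a filter that removes genes that fell out of detection, had -1.62 and -1.16. With the second probe of a gene, 2 members were lower in MFH1NR than in COS1NR (against 14.7%). At 3-fold, 0 members were higher in COS1NR (against 9.74%), 2 in MFH1NR (10.1%) and 0 in both (4.78%). Among the 25 members well above background throughout, 15 were lower in COS1NR (against 15.1% of genes), 13 in MFH1NR (16.2%) and 12 in both (8.77%). Under the other settings, with 29 or 30 members, these counts lay between 17 and 20, 15 and 17, and 15 and 16, while those of all genes lay between 13.1% and 25%, 13.0% and 23.4%, and 8.77% and 15.4%. The planned normexp on the mean spot intensity was not run. Ratios of Mx2, Gbp5 and Ifi47 in the sarcoma lines are limited by signal over background.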

Other observations

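Outside the 35 members, 50 further interferon-induced genes were listed, of which 35 had a named probe and 31 a ratio. In COS1NR 12 of the 31 were at least 2-fold lower than in MSCs (against 20.0% of all genes) and 1 was higher (against 20.6%). In MFH1NR 11 were lower (against 21.6%) and 3 higher (against 19.3%). Lower in both lines were 8 (against 13.6%), and the medians were -0.65 and -0.85, between those of the members and those of all genes. The macrophage markers were lower in both lines here too, and their part was not tested.

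The following genes of that list and of the lists of nucleic acid sensors and negative regulators were chosen after their values were seen. Casp1, the protease that matures interleukin-1 beta, had a level of 1.34 in MSCs against 0.137 in COS1NR and 8.20 in MFH1NR, with log2 ratios to MSCs of -3.29 and 2.61. Irf5, a factor downstream of Toll-like receptors, had 2.00, 0.808 and 10.3, with -1.31 and 2.37. Both were, like Usp18, below MSCs in COS1NR and above them in MFH1NR. Ifitm3, which blocks the fusion of virus with endosomes, went the other way between the lines, with 28.7 in MSCs against 15.4 in COS1NR and 0.598 in MFH1NR. Its relative Ifitm1 had 17.1, 0.866 and 0.101, 19.7-fold and 170-fold lower. Ube2l6, the enzyme that carries Isg15 to its targets, was the gene higher in both lines, with 1.36, 7.70 and 3.12, while Isg15 itself was lower. Socs1, an inhibitor of Janus kinases that interferon itself induces, had 0.562, 0.0605 and 0.115. Each value is from 1 array and none of these differences was tested.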
